A study of Homo sapiens with 2 samples.

Results

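The miR-125 family comprised 5 mature miRNAs, taken by name from the 2588 mature miRNA names in each deposited count table: the 5p arms hsa-miR-125b-5p and hsa-miR-125a-5p and the 3p arms hsa-miR-125b-1-3p, hsa-miR-125a-3p and hsa-miR-125b-2-3p, written below without the species prefix. Small RNAs were sequenced from lysate of parental MDA231 cells, a triple-negative breast cancer line, after affinity purification on amylose resin. In the bait library the resin carried in vitro transcribed lncRNA MACC1-AS1 with MS2 hairpins, held by the MS2 coat protein fused to maltose-binding protein, and in the no-bait library it carried no RNA substrate. Both libraries were listed with 10 mM maltose, an RNA incubation of 3 h and a lysate incubation of 5 h. Each condition held 1 library, with 1047269 counts with bait and 269716 without, so no difference below has a replicate check and all intervals are 95% intervals that cover counting error only. The no-bait resin lacked the MS2 hairpins as well as MACC1-AS1, and a ratio between the libraries cannot tell binding to either apart from binding to any RNA on the resin. Values are shares of a library (RPM, the usual depth-scaled unit, here relative to all miRNA counts of the library). A lower share therefore need not mean that less was recovered, nor a higher share that more was.

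miR-125 is the vertebrate relative of lin-4, the miRNA first described in Caenorhabditis elegans as a timer of larval development. Its 5p arms are the usual guide strands that load into Argonaute and pair with target RNAs through the seed, the bases near the 5′ end. In breast cancer cells miR-125a-5p and miR-125b-5p are known to repress the receptor genes ERBB2 and ERBB3, and miR-125b-5p is also known to target the apoptosis gene BAK1. The 3p arms come from the other side of the hairpin and usually accumulate less.

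The human genome holds 3 miR-125 hairpins, each in a cluster with a miR-99 or miR-100 gene and a let-7 gene. In GENCODE 29 on GRCh38, MIR125B1 lies on chromosome 11 (122099757 to 122099844, minus strand) in an intron of the non-coding gene MIR100HG. MIR125B2 lies on chromosome 21 (16590237 to 16590325, plus strand) in an intron of the non-coding gene MIR99AHG. MIR125A lies on chromosome 19 (51693254 to 51693339, plus strand) in an intron of SPACA6 and overlaps an exon of the antisense transcript SPACA6P-AS. These positions are those of the annotation, since the authors' build was not stated in the labels or files. The name miR-125b-5p covers reads from MIR125B1 and MIR125B2, which give the same 5p sequence, while each 3p name belongs to a single hairpin.

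The mature sequences, from RefSeq (GRCh38.p14) and with the seed of bases 2 to 8 in capitals, show which members share a seed and where they part:
miR-125b-5p: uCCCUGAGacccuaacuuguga
miR-125a-5p: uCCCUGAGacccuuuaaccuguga
miR-125b-1-3p: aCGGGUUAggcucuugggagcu
miR-125a-3p: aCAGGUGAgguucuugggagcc
miR-125b-2-3p: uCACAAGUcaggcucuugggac

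The 5p arms had the same seed, CCCUGAG, and were identical over their first 13 bases and their last 5. They differed between these stretches and in length, with 22 bases in miR-125b-5p and 24 in miR-125a-5p, and 50.0% of the bases of each were G or C. The 3p arms had a seed each. miR-125b-1-3p and miR-125b-2-3p shared a run of 12 bases, aggcucuuggga. It begins at the last seed base of miR-125b-1-3p and after the seed of miR-125b-2-3p. miR-125b-1-3p and miR-125a-3p shared a run of 10, ucuugggagc. A single other name in the sequence table carried a member's seed. That was miR-4319, with CCCUGAG, and it had 0 counts in both libraries. The labels and files do not state how reads shared by several names were assigned. A short read ending within the first 13 bases could have been counted under either 5p name or under both. Equal counts were listed for miR-199a-3p and miR-199b-3p, at 176 with bait and 92 without. The same held for miR-365a-3p and miR-365b-3p, at 42 with bait and 0 without. Each of these names enters the background below separately.

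The hairpins MIR125B1 and MIR125A are shown with both mature arms in capitals, since the arms behaved differently in the libraries:
MIR125B1: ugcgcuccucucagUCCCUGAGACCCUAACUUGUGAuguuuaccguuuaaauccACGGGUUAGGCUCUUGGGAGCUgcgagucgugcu
MIR125A: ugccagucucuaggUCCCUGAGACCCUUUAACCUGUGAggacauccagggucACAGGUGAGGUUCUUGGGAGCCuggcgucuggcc

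The family took 5.76% of counts with bait (Clopper-Pearson interval 5.72% to 5.81%) and 0.816% without (0.783% to 0.851%). Summed over its 5 members it stood 7.06-fold higher with bait (6.76 to 7.37), from 60344 counts with bait and 2202 without. Nearly all of this lay in miR-125b-5p. Without that member the remaining sum of 4743 and 942 counts had a ratio of 1.30 (1.21 to 1.39).

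miR-125b-5p had 55601 counts with bait and 1260 without, or 53091 RPM (52651 to 53535) with bait and 4672 RPM (4417 to 4937) without. The share with bait was 11.4-fold higher (10.7 to 12.0), a log2 ratio of 3.51. With bait it was the fourth most abundant miRNA. Its level there lay between those of miR-92a-3p at 128242 RPM and miR-30a-5p at 40073 RPM, and its counting interval met neither. Without bait its rank was 19. There its interval overlapped those of miR-148a-3p (5128 RPM, 4861 to 5405) and miR-423-5p (5157 RPM, 4890 to 5436) just above it and of miR-221-3p (4405 RPM, 4158 to 4662) just below.

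miR-125a-5p, with the same seed, had 4434 counts with bait and 795 without, or 4234 RPM (4110 to 4360) with bait and 2948 RPM (2746 to 3160) without. Its ratio of 1.44 (1.33 to 1.55) was above 1 beyond counting error but passed no call. It ranked 28 with bait and 26 without, so its place among all miRNAs was nearly the same in the libraries. With bait its interval overlapped that of miR-146a-5p (4026 RPM, 3905 to 4149), next below it, and not that of miR-92b-3p (4622 RPM, 4493 to 4755), next above it. Without bait its interval overlapped those of miR-182-5p (3315 RPM, 3101 to 3539), next above it, and miR-7-5p (2896 RPM, 2696 to 3106), next below.

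The 3p arms were rarer and stood on the other side of 1. miR-125b-1-3p had 283 counts with bait and 123 without, or 270 RPM (240 to 304) with bait and 456 RPM (379 to 544) without, a ratio of 0.593 (0.478 to 0.738) that passed no call. miR-125a-3p had 25 counts with bait and 23 without, although the bait library was 3.88-fold deeper. Its levels were 23.9 RPM (15.4 to 35.2) with bait and 85.3 RPM (54.1 to 128) without, which made its share 3.57-fold lower with bait (1.94 to 6.56). miR-125b-2-3p had 1 count in each library, which allows no ratio.

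**Figure D1:**
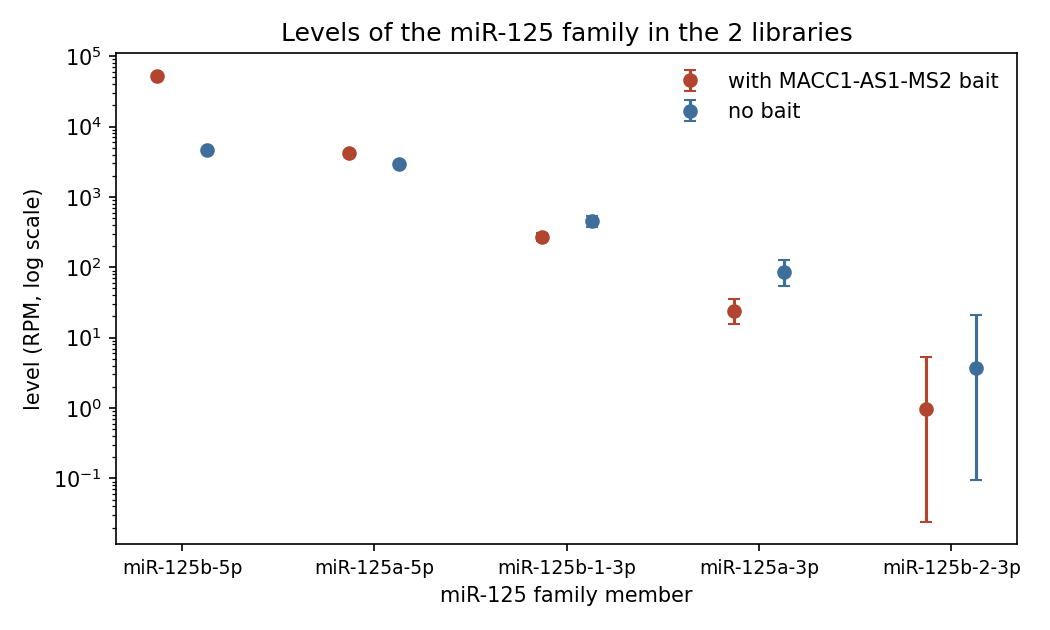
Level of each miR-125 member (RPM, log axis) in the library with MACC1-AS1-MS2 bait (red, left of each pair) and in the no-bait library (blue); points are 1 library each and bars are exact Poisson 95% intervals. miR-125b-5p stands at 53091 RPM with bait and 4672 RPM without, and miR-125a-5p at 4234 RPM with bait and 2948 RPM without. The intervals of miR-125b-2-3p overlap.

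A miRNA was tested when the libraries together held at least 30 counts, and called higher or lower at a 2-fold difference of shares whose interval excluded 1. Of 231 tested miRNAs, 91 were called higher with bait, a background of 39.4%, and 62 were called lower, 26.8%. DESeq2 size factors moved this split to 114 higher and 44 lower, so that higher calls made up 72.2% of all calls against 59.5% with library totals. Of the 5 members 4 were tested. Among these, miR-125b-5p was called higher, miR-125a-3p was called lower and the others passed neither rule. Counts of this size stand near the background and single out no direction for the family. The median ratio of the tested members was 1.01, beside 1.46 over all tested miRNAs. In the order of ratios from the highest, miR-125b-5p ranked 18, miR-125a-5p 118, miR-125b-1-3p 160 and miR-125a-3p 195 of the 231.

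**Figure D2:**
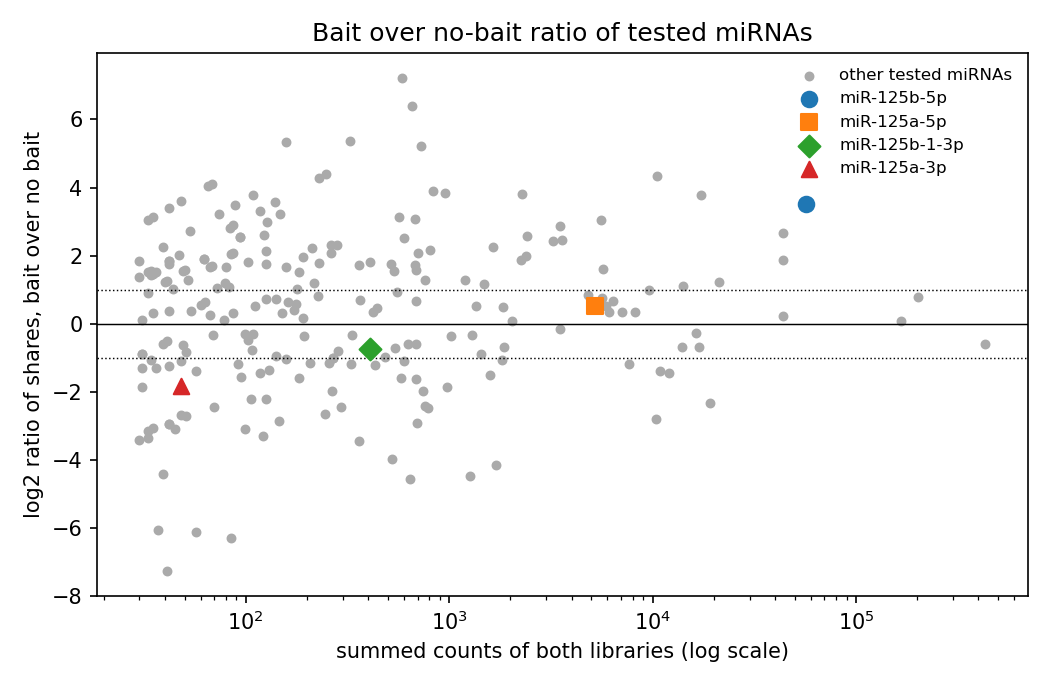
Log2 ratio of shares, bait over no bait, against the summed counts of both libraries (log axis) for the 231 tested miRNAs, with the 4 tested miR-125 members in colour; dotted lines mark 2-fold, and a miRNA with 0 counts in a library is drawn with 3 counts there. miR-125b-5p lies at 3.51 with 56861 summed counts and miR-125a-3p at -1.84 with 48.

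Another scaling moves every log2 ratio by the same amount, so the order of the members could not change. The members kept their side of 1 with edgeR TMM factors, DESeq2 size factors, totals without the 5 most abundant miRNAs and totals without the miR-125 members. Over these scalings and the library totals the ratio ranged from 10.4 to 15.2 for miR-125b-5p, 1.31 to 1.92 for miR-125a-5p, 0.542 to 0.794 for miR-125b-1-3p and 0.256 to 0.375 for miR-125a-3p. Scaling shifted every log2 ratio by 0.15 with TMM, 0.42 with DESeq2, -0.13 without the 5 most abundant and 0.07 without the members.

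Quotients of 2 miRNAs within a library do not depend on scaling, and 13 such pairs were compared between the libraries. miR-125b-5p outnumbered miR-125a-5p 12.5 to 1 with bait and 1.58 to 1 without. The quotient was thus 7.91-fold higher with bait (7.19 to 8.70, exact conditional interval). These arms share a seed and a GC content and differ in length, and the part of any of these was not tested. Within the family, miR-125b-5p made up 92.1% of counts with bait (91.9% to 92.4%) and 57.2% without (55.1% to 59.3%). miR-125a-5p made up 7.35% with bait and 36.1% without. The libraries thus differed in the balance of the 5p arms as well as in the share of the family.

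**Figure D3:**
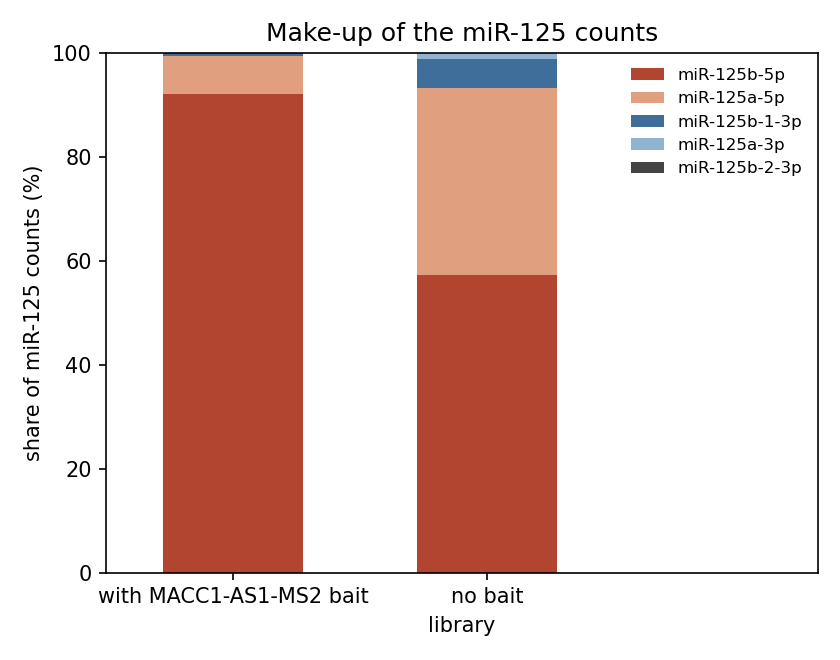
Share of each member in the summed miR-125 counts (%), in the library with bait (left bar, 60344 counts) and without (right bar, 2202 counts). miR-125b-5p fills 92.1% of the bar with bait and 57.2% of the bar without, and the 3p arms together take 0.512% with bait and 6.68% without.

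The arms of MIR125B1 and of MIR125A stood further apart with bait than without. In the bait library the 3p arm took 0.506% of the counts of miR-125b-5p and miR-125b-1-3p (0.449% to 0.569%), against 8.89% without bait (7.45% to 10.5%). The quotient of 5p over 3p was 196 with bait and 10.2 without, a 19.2-fold difference (15.3 to 24.0). Some of these 5p reads may come from MIR125B2, whose own 3p arm had 1 count in each library. The quotient of miR-125b-5p over miR-125b-2-3p could therefore not be placed (ratio of quotients 44.1, 0.562 to 3464). For MIR125A, a hairpin with names of its own on both arms, the 3p arm took 0.561% of the pair with bait (0.363% to 0.827%) and 2.81% without (1.79% to 4.19%). There the quotient of 5p over 3p was 177 with bait and 34.6 without, 5.13-fold higher (2.77 to 9.47). Between the 3p arms the difference was smaller. miR-125b-1-3p outnumbered miR-125a-3p 11.3 to 1 with bait and 5.35 to 1 without, 2.12-fold apart (1.10 to 4.05). All 3p arms together made up 0.512% of the family with bait (0.457% to 0.572%) and 6.68% without (5.67% to 7.80%). Arms that part between the libraries were not particular to this family. Bait over no-bait ratios were 3.01 for miR-27a-3p and 0.132 for miR-27a-5p, while miR-22-3p at 1.39 and miR-22-5p at 1.76 lay close. How common such differences are over all hairpins was not tested.

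The tested neighbours in the 3 clusters all lay below miR-125b-5p in their ratio, as did most tested miRNAs, since it ranked 18 of 231. Of 12 neighbouring arms, 8 had enough counts to be tested. Among them 1 was called higher and 2 were called lower with bait, beside 39.4% higher and 26.8% lower over all tested miRNAs. Counts this small single out no direction. Their median ratio was 0.638, beside 1.46 over all tested miRNAs. These calls and directions held with the 4 other scalings.

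Around MIR125B1, which lies 46677 bases from MIRLET7A2 and 52384 bases from MIR100 in GENCODE, miR-100-5p was counted 310370 times with bait and 122128 times on resin with no bait, and its ratio was 0.655 (0.650 to 0.659). This miRNA belongs to the miR-10 and miR-99 group and was the most abundant miRNA of both libraries. Relative to it, miR-125b-5p was 17.4-fold higher with bait (16.4 to 18.4). let-7a-5p, encoded at 3 loci and linked to differentiation, stood at a ratio of 0.618 (0.596 to 0.641). miR-125b-5p was 18.4-fold higher relative to it (17.2 to 19.7). The arm called higher was let-7a-2-3p, with 32 counts with bait and 1 without and a ratio of 8.24 (1.38 to 336), an interval that holds the 11.4 of miR-125b-5p. The 3p arm of MIR125B1 was lower relative to it. miR-125b-1-3p outnumbered let-7a-2-3p 8.84 to 1 with bait and 123 to 1 without, a quotient 13.9-fold lower with bait (2.26 to 571).

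Around MIR125B2, miR-99a-5p was counted 1314 times with bait and 545 times on resin with no bait, and its ratio was 0.621 (0.561 to 0.687). let-7c-5p had 121 counts with bait and 172 without, 5.52-fold lower with bait (4.35 to 7.02). miR-125b-5p was 18.3-fold higher relative to miR-99a-5p (16.3 to 20.5) and 62.7-fold higher relative to let-7c-5p (49.1 to 80.3).

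miR-125a-5p lay close to its neighbour in the tight MIR125A cluster, where MIR99B ends 572 bases and MIRLET7E 389 bases before MIR125A. miR-99b-5p was counted 36080 times with bait and 7927 times on resin with no bait, and its ratio was 1.17 (1.14 to 1.20), and miR-125a-5p was 1.23-fold higher relative to it (1.13 to 1.33). The ratio of let-7e-5p was 0.661 (0.554 to 0.790), and miR-125a-5p was 2.17-fold higher relative to it (1.79 to 2.64). On the 3p side miR-99b-3p was 3.05-fold lower with bait (2.24 to 4.12). The quotient of miR-125a-3p over miR-99b-3p was 0.245 with bait and 0.288 without, and its ratio of 0.853 had an interval of 0.429 to 1.70, within which the libraries could not be told apart at this depth.

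**Figure D4:**
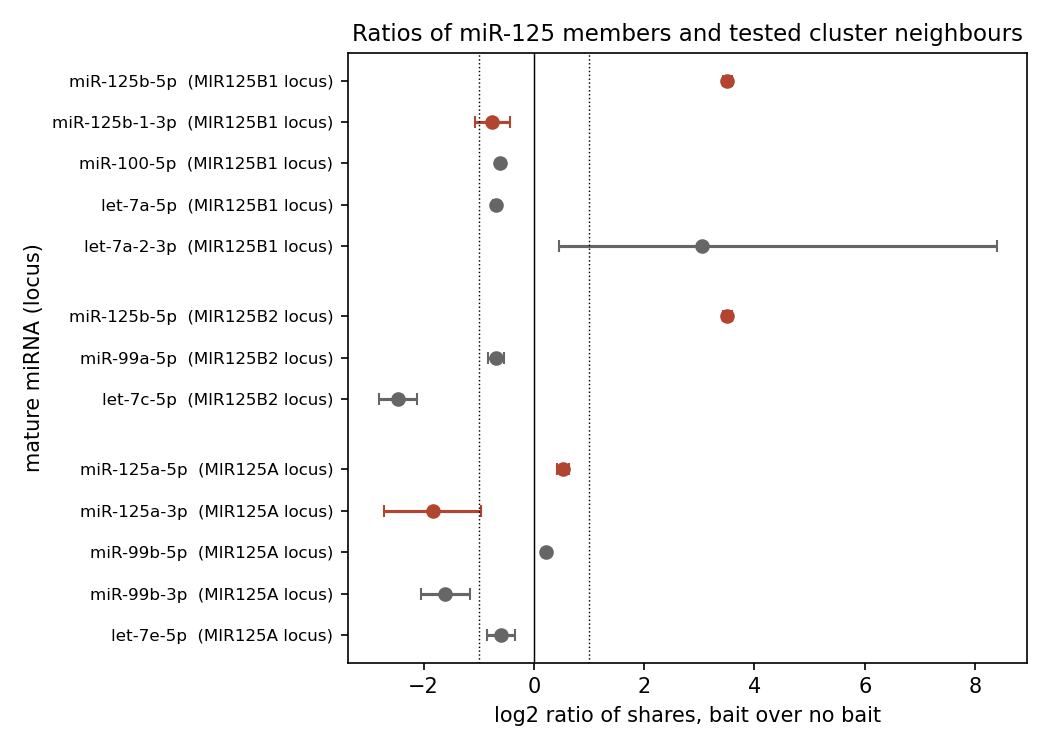
Log2 ratio of shares, bait over no bait, for the tested miR-125 members (red) and their tested cluster neighbours (grey), grouped by locus; bars are exact conditional 95% intervals and dotted lines mark 2-fold. miR-125b-5p is drawn at both of its loci, at 3.51, and miR-100-5p, let-7a-5p and miR-99a-5p lie between -0.61 and -0.69.

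Outside the clusters, miR-10a-5p and miR-10b-5p belong to the group of the neighbours miR-99 and miR-100 and are encoded in the HOX gene clusters. They were 2.61-fold (2.51 to 2.72) and 2.59-fold lower with bait (1.79 to 3.72). DESeq2 size factors ended both calls, at ratios of 0.513 and 0.518. The 3 tested miRNAs whose log2 ratio over the 2 libraries lay nearest to that of miR-125b-5p were miR-132-5p, miR-324-3p and miR-4677-3p, at most 0.09 away after rounding. They had 0 to 2 counts without bait, and the ratio of miR-324-3p is against a floor of 3 counts, so this likeness is loose. Nearest to miR-125a-5p were miR-182-5p, miR-30e-3p and miR-378c, at most 0.01 away after rounding.

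The members' seeds were searched for in the annotated transcript MACC1-AS1-201 of 639 bases. The isoform of the bait and its MS2 repeats were not analysed here. CTCAGGG, the complement of bases 2 to 8 of both 5p arms, had 0 matches on either strand, as did its shorter form TCAGGG for bases 2 to 7. In the first 639 bases of 15517 GENCODE lncRNA transcripts of at least that length, 8.40% held CTCAGGG and 19.7% held TCAGGG on the transcript strand. TAACCCG for miR-125b-1-3p, TCACCTG for miR-125a-3p and ACTTGTG for miR-125b-2-3p likewise had 0 matches on either strand, and 0.483%, 8.90% and 3.28% of the windows held them. Of the shorter forms for bases 2 to 7 of the 3p arms, AACCCG and CTTGTG had 0 matches on either strand, and CACCTG for miR-125a-3p had 0 on the transcript strand and 1 on the reverse strand. On the transcript strand 5.47% of the windows held AACCCG, 16.4% CTTGTG and 28.99% CACCTG. A missing match says only that these letters are not in this transcript.

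Markers of the line and of other cells were summed in each library. The 4 miRNAs listed as markers of basal, mesenchymal-like breast lines (miR-221-3p, miR-222-3p, miR-100-5p and miR-21-5p) held 47.7% of counts with bait and 59.5% without. Most of this was miR-100-5p, at 29.6% with bait and 45.3% without. The members went different ways, with ratios of 1.72 for miR-21-5p, 1.27 for miR-221-3p, 0.655 for miR-100-5p and 0.200 for miR-222-3p, the last called lower. The 6 epithelial miRNAs held 0.0181% with bait and 0.0111% without, with miR-141-3p and miR-205-5p at 0 in both libraries. The 7 blood miRNAs held 0.0432% with bait and 0.0864% without, mostly in miR-486-5p, with miR-144-3p, miR-150-5p and miR-223-3p at 0. The 7 liver, muscle and neural miRNAs held 0.177% with bait and 0.165% without, mostly in miR-128-3p, with miR-124-3p at 0. The part of other cells in the miR-125 ratios was not tested.

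In the authors' deposited table the log2 fold changes of bait over no bait were 3.51 for miR-125b-5p, 0.52 for miR-125a-5p, -0.76 for miR-125b-1-3p and -1.84 for miR-125a-3p. They rest on the same counts as the ratios above and are no separate check. The same deposited table, which names no test, has p-values of 4.53e-07 for miR-125b-5p, 0.305 for miR-125a-5p, 0.378 for miR-125b-1-3p and 0.0471 for miR-125a-3p, and they compare the libraries and not the conditions.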

How the data were processed

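For each of 2 libraries the authors deposited a whole-number count per mature miRNA name and an RPM value, which equalled the count over the library total within 0.00994 RPM. Their own comparison table holds a log2 fold change and a p-value, per the file headers. The submitters' processing notes list BWA. Neither labels nor files state the miRNA reference, the build or how reads shared by several names were counted.

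Counts were divided by library totals. Ratios and quotients have exact conditional 95% intervals, levels exact Poisson and shares Clopper-Pearson ones (Python 3.11.15, scipy 1.17.1). A count of 0 was set to 3 for a ratio, and pairs of counts at or under 3 got none. Intervals cover counting error only and treat every read as independent. The deposited counts carry no molecular identifiers, so repeated reads of 1 molecule cannot be told apart. Alternative scalings came from edgeR 4.0.16 and DESeq2 1.42.0. The code for ratios and calls was run on simulated Poisson counts with known folds. These hold no variation between preparations, so the run checks the code and not the calls in these data. Named were the members, their cluster neighbours, miR-10, seed mates, neighbours in rank and the nearest ratios. Members and lists were chosen with earlier results of these data known.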

Additional observations from a re-analysis of the deposited data

How the results depend on the processing

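With 1 library per group, depth limits the 3p arms most, and no interval includes variation between preparations. No paired analysis was possible because each group has a single library. Requiring the interval itself to lie beyond 2-fold ended the lower call of miR-125a-3p, whose ratio stayed at 0.280. Of the background calls, 59 higher and 37 lower ones were made among miRNAs with at least 100 counts, where fewer are tested, and 100 lower ones with no count minimum. The other 51 alternative values, which included scaling, the deposited RPM and 0.5 counts added to quotients, kept their direction and call or stayed within 1.5 times (counts of calls) or the counting interval (quotients).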

Other observations

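miR-125b-5p is among the names with several hairpins, and the deposited files write its counts without decimals, while the other 4 members have 2 decimals. Of 27 tested names with at least 2 hairpins in the RefSeq table, 20 were written without decimals in at least 1 library, and of 176 with a single hairpin, 6 were. The sources used here do not say why. Of the 27, 14 were called higher and 6 lower with bait, with a median ratio of 2.25, and of the 176 single-hairpin names 67 were higher and 45 lower, with a median of 1.43. This split was chosen after the values were seen, and its part in the ratio of miR-125b-5p was not tested. The multi-hairpin names spanned wide values, from miR-218-5p at 15.0 and miR-30c-5p at 13.7, both above miR-125b-5p, through miR-92a-3p at 1.05 and let-7a-5p at 0.618, to miR-320c at 0.182 and miR-941 at 0.0627.

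Across 203 tested miRNAs with a sequence, Spearman's rho of GC content with the log2 ratio was -0.305, a description over miRNAs that share the same 2 libraries. The 3p arms miR-125b-1-3p and miR-125a-3p had 59.1% G and C and the 5p arms 50.0%. The 22 tested miRNAs at 50.0%, which include these 5p arms, spanned ratios from 0.117 to 17.3 with a median of 1.04. The part of GC content in these ratios was not tested.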
